A study of Mus musculus with 3 samples.

Results

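The 10 genes described here encode the adaptor proteins, kinases and ubiquitin ligase that stand directly beneath Toll-like receptor 4: Myd88, Tirap, Ticam1, Ticam2, Irak1, Irak3, Irak4, Traf6, Tbk1 and Ikbke. They were chosen by gene symbol in the GENCODE M21 annotation, and all 10 were found among the 55536 annotated genes of the deposited tables. The libraries hold total RNA, after removal of ribosomal RNA, from the cytosol of C57BL/6J mouse bone marrow-derived macrophages, which are primary macrophages grown in culture from marrow cells. All cells had received lipid A, the lipid part of lipopolysaccharide that the receptor binds, at 100 ng/ml for 50 min. There were 3 libraries of this 1 group, numbered by biological replicate, and no genetic alteration is named. They carry the same donor label, and neither separate animals nor separate cultures are stated, so each p-value speaks of the spread among these 3 libraries alone, and that spread may be technical. Age and sex were not recorded. No unstimulated or later sample and no nuclear fraction was analysed here, so no level below is a response to lipid A.

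Toll-like receptor 4 signals through 2 adaptor routes. At the cell surface TIRAP brings MyD88 to the receptor, MyD88 nucleates a helical complex with IRAK4 and IRAK1 or IRAK2, and IRAK1 engages the ubiquitin ligase TRAF6, whose chains activate the kinase TAK1 and the IKK complex upstream of NF-kB. From the endosome TRAM, encoded by Ticam2, recruits TRIF, encoded by Ticam1, and TRIF leads through TRAF3 to TBK1 and IKK-epsilon, which phosphorylate the interferon regulatory factor IRF3. IRAK-M, encoded by Irak3, is known in macrophages as a brake on the first route.

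Gene expected counts, the estimated numbers of reads per gene, summed to between 33044910 and 36769402 per library. Levels are given as TPM, an abundance per transcript length relative to all RNA of a library, so TPM values can be compared between genes. Each library was quantified in 2 ways, and values come from the first quantification unless the second is named. Protein-coding genes held 38.4%, 26.6% and 34.8% of the TPM in libraries 1, 2 and 3 of the first quantification and 17.6%, 9.84% and 7.91% in the second. A shift in that share moves every TPM of a library. All 7 macrophage markers reached 1 TPM in each library, with a median of 185 TPM. Of the 6 neutrophil markers 2 did, S100a9 at 19.8 TPM and S100a8 at 11.9 TPM, with a summed marker level of 29.1 to 35.2 TPM and the defining marker Ly6g at 0. No marker of T and NK cells, B cells, dendritic cells, erythroid cells, mast cells and basophils, or stroma and endothelium reached 1 TPM in each library. The part of other cells in the levels below was not tested. In bulk RNA, fewer cells of a type and less RNA per cell cannot be told apart.

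All 10 adaptors and kinases were detected, which here means that no library was under 1 TPM. Their mean levels ran from 2.04 TPM for Tirap to 29.3 TPM for Myd88, with a median of 12.8 TPM. The median was 9.39 TPM over the 9128 protein-coding genes that were detected in the same way. Myd88 and Ikbke stood at percentiles 81.0 and 79.4 of those genes, and Tirap stood at percentile 7.84.

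**Figure D1:**
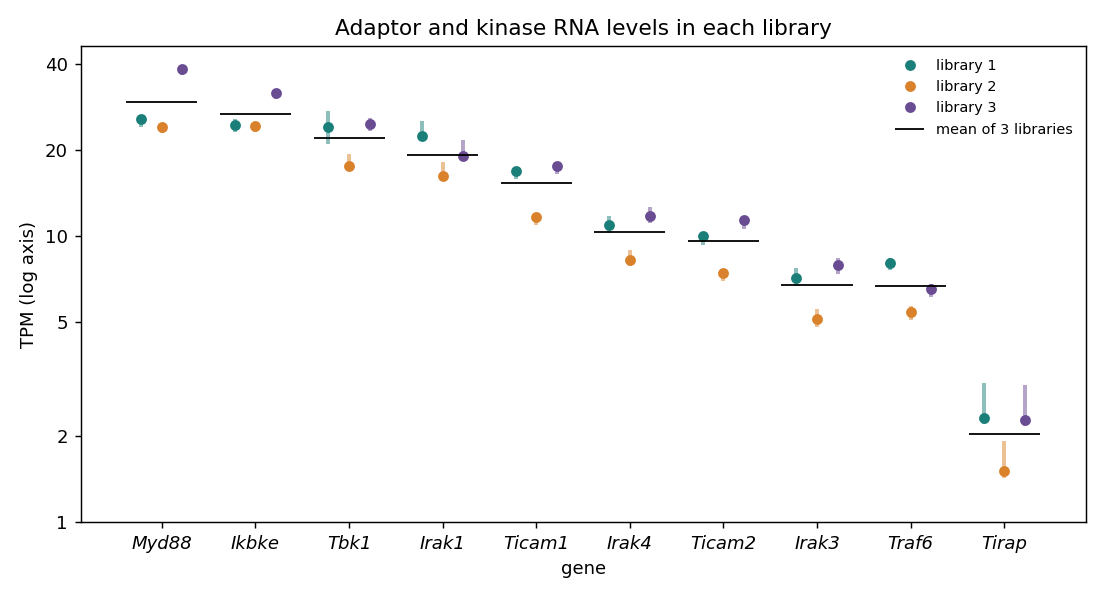
TPM of each of the 10 genes in libraries 1, 2 and 3 (points) on a log axis, with the authors' deposited interval of each estimate (vertical bars) and the mean over the libraries (horizontal bars). The level falls from 29.3 TPM for Myd88 to 2.04 TPM for Tirap, and library 2 has the lowest TPM of all 10 genes in this first quantification.

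Myd88, the adaptor shared by most Toll-like receptors and the interleukin-1 receptor family, had 25.6, 24.1 and 38.4 TPM in libraries 1, 2 and 3, a mean of 29.3 ± 7.85 TPM (SD, n = 3). On this scale library 3 was high and the others lay close together, while the levels rescaled over protein-coding genes, described below, were 66.7, 90.6 and 110. The gene (ENSMUSG00000032508.8) lies on the minus strand at chr9:119335934-119341411 in mm10. Nearly all of its RNA was assigned to Myd88-201, at 99.4% ± 0.222 of the Myd88 TPM (SD, n = 3). The known inhibitory splice form MyD88-S skips exon 2, and 0 of the annotated Myd88 transcripts join exon 1 to exon 3, so that form was not measured. In the annotation 223 exonic bases of Myd88-201, 11.4% of its length, are shared with Acaa1a on the opposite strand. The strand setting of the counting is not given in the sources used here, so reads from those bases may belong to either gene.

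Tirap, the bridging adaptor between the receptor and MyD88, had 2.32, 1.51 and 2.28 TPM in libraries 1, 2 and 3, a mean of 2.04 ± 0.457 TPM (SD, n = 3). It was the lowest of the 10 genes in each library. Myd88 exceeded Tirap 11.0-fold, 16.0-fold and 16.8-fold in libraries 1, 2 and 3, a log2 ratio of 3.84 ± 0.33 (SD, n = 3). Tirap (ENSMUSG00000032041.15) lies on the minus strand at chr9:35184551-35200291. Its transcripts Tirap-201 and Tirap-203 have the same coding sequence and differ mainly at the 3′ end, where Tirap-201 runs 2234 bases further. Their exonic lengths, 4589 and 2310 bases, differ by more than that, so the bases before the coding sequence differ too. Tirap-201 held 71.9%, 76% and 67.7% of the Tirap TPM in libraries 1, 2 and 3. The second quantification, a separate set of transcript estimates deposited for the same libraries, gave it 59.5% ± 3.72 (SD, n = 3), so the long 3′ end led in both. Exons of Tirap-201 share 446 bases with the antisense gene Gm39318, listed at 0 TPM, and 39 bases with Srpr on the opposite strand.

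Ticam1, which encodes TRIF, had 16.9, 11.6 and 17.6 TPM in libraries 1, 2 and 3, a mean of 15.3 ± 3.25 TPM (SD, n = 3). Libraries 1 and 3 were close in TPM and library 2 was low, whereas rescaled over protein-coding genes the levels were 44.0, 43.7 and 50.5, with library 3 high. The gene (ENSMUSG00000047123.8; chr17:56269319-56276786, minus strand) has a single annotated transcript, so it offers no choice of isoform.

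Ticam2, which encodes TRAM, had 9.96, 7.43 and 11.3 TPM in the same order, a mean of 9.58 ± 1.98 TPM (SD, n = 3). It (ENSMUSG00000056130.10) lies on the minus strand at chr18:46557291-46574533. Ticam2-201 held 98.3% ± 1.20 of its TPM (SD, n = 3). On the same strand, 838 of its exonic bases, 19.9% of Ticam2-201, are also exons of Tmed7, which stood at 33.5 TPM. Reads from that stretch had to be divided between both genes, and the level of Ticam2 is uncertain to that extent.

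Within the TRIF route the adaptor Ticam1 exceeded Ticam2 1.69-fold, 1.56-fold and 1.55-fold in libraries 1, 2 and 3, a log2 ratio of 0.68 ± 0.07 (SD, n = 3). The second quantification gave 0.72 ± 0.05. Between the routes, Myd88 exceeded Ticam1 1.52-fold, 2.07-fold and 2.18-fold, a log2 ratio of 0.93 ± 0.28 (SD, n = 3). The direction was the same in 3 of 3 libraries for both ratios. With 3 libraries a paired sign test cannot give a p below 0.25, and for that reason ratios are given with their spread and no p.

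Irak4, the kinase that MyD88 binds first, had 10.9, 8.26 and 11.8 TPM in libraries 1, 2 and 3, a mean of 10.3 ± 1.84 TPM (SD, n = 3). The gene (ENSMUSG00000059883.16) lies on the plus strand at chr15:94543643-94581815, and Irak4-201 held 96.8% ± 1.32 of its TPM. Irak1, the kinase it activates, had 22.4, 16.2 and 19.1 TPM, a mean of 19.2 ± 3.07 TPM (SD, n = 3). Irak1 exceeded Irak4 2.05-fold, 1.96-fold and 1.62-fold in libraries 1, 2 and 3, a log2 ratio of 0.90 ± 0.18 (SD, n = 3). Over full-length coding transcripts alone, a restriction chosen after seeing the data, that ratio was 0.53 ± 0.13.

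Irak1 (ENSMUSG00000031392.18; chrX:74013914-74023918, minus strand) had the most isoforms of the 10 genes, with 22 annotated transcripts of which 21 had some TPM. Irak1-206 led with 44.9%, 43.6% and 46.6% of the Irak1 TPM in libraries 1, 2 and 3, followed by Irak1-204 with 22.3%, 29.7% and 29.7%. Between exons 4 and 5 these transcripts differ by a tandem acceptor, a pair of splice sites 3 bases apart, which adds or leaves out a single codon. The joins are shown because the estimates divide Irak1 along them, with 15 bases on each side of the extra bases, taken from the GENCODE M21 transcript sequences (mm10, minus strand, chrX:74022647-74022863 with the intron left out). Capitals mark the extra bases.
Irak1-206: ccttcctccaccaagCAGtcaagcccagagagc
Irak1-204: ccttcctccaccaagtcaagcccagagagc
Exon 5 is annotated at chrX:74022473-74022664 with the extra bases and ends at 74022661 without them.

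The 6 Irak1 transcripts with the extra codon held 61.1% ± 2.35 of the Irak1 TPM and the 7 without it held 30.4% ± 4.02 (SD, n = 3). Of the TPM in transcripts that cover the join, the longer form made up 71.1%, 64.1% and 65.1% in libraries 1, 2 and 3. The second quantification gave 75.5%, 64.3% and 65.8%, so both estimates put the longer form ahead in 3 of 3 libraries. Irak1-201, which alone carries an additional coding exon of 117 bases (chrX:74017901-74018017), held 3.61% ± 0.225 of the Irak1 TPM, and 8.48% ± 1.5 in the second quantification. Transcripts annotated with a retained intron held 12.6% ± 2.25 of the Irak1 TPM (SD, n = 3).

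Irak3, the brake of the MyD88 complex, had 7.13, 5.14 and 7.89 TPM in libraries 1, 2 and 3, a mean of 6.72 ± 1.42 TPM (SD, n = 3). It was lower than Irak4 in 3 of 3 libraries, with a log2 ratio of Irak3 to Irak4 of -0.63 ± 0.05 (SD, n = 3). The log2 ratio of Irak3 to Irak1 was -1.53 ± 0.22, again with the same sign in 3 of 3 libraries. Irak2, the family member outside the 10 genes, which joins the MyD88 complex beside IRAK1, stood at 24.9 TPM and exceeded Irak4 by a log2 ratio of 1.26 ± 0.13 (SD, n = 3). The order of the IRAK family by mean TPM was therefore Irak2, Irak1, Irak4 and Irak3. Of the Irak2 TPM, 26.8%, 10.8% and 12.2% in libraries 1, 2 and 3 lay in Irak2-207, a retained-intron transcript. The ratio of Irak2 to Irak4 was not computed over full-length coding transcripts. Irak3 (ENSMUSG00000020227.10) lies on the minus strand at chr10:120141648-120202130. Irak3-201 held 97.3% ± 1.27 of its TPM in the first quantification and 82.9% ± 7.16 in the second. The difference went mainly to Irak3-205, which has another first exon and 276 fewer coding bases: the first quantification gave it 0.514% ± 0.891 and the second gave it 20.9%, 10.5% and 0% in libraries 1, 2 and 3. The estimates thus differ on whether that first exon was used. Irak3-201 shares 70 exonic bases, 2.26% of its length, with Tmbim4 on the opposite strand.

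Traf6, the ubiquitin ligase that takes the signal from the IRAK kinases, had 8.07, 5.44 and 6.53 TPM in libraries 1, 2 and 3, a mean of 6.68 ± 1.32 TPM (SD, n = 3). Library 1 was highest. The gene (ENSMUSG00000027164.8) lies on the plus strand at chr2:101678429-101701669, and Traf6-201 held 93.9% ± 4.93 of its TPM. Traf3, the ligase on the TRIF side, stood at 4.99 TPM. Traf6 exceeded Traf3 1.56-fold, 1.58-fold and 1.03-fold, a log2 ratio of 0.45 ± 0.35 (SD, n = 3), and in library 3 the second quantification put Traf3 ahead, at a log2 ratio of -0.34. The order of both ligases was not resolved.

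Irak1 and Traf6 are the textbook targets of miR-146a, a microRNA known to restrain this pathway in myeloid cells. The sequences below are shown so that the matching letters can be seen. Mature mmu-miR-146a-5p and mmu-miR-146b-5p, from RefSeq (GRCm38.p6), share the seed, bases 2 to 8, which is in capitals.
mmu-miR-146a-5p: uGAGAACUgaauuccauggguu
mmu-miR-146b-5p: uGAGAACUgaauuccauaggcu
A match to both is the word AGTTCTC on the sense strand of a 3′ UTR. The pair of matches in Irak1-206 (chrX:74015374-74015403, minus strand, mm10) and the first matches in Traf6-201 (chr2:101697944-101697973 and chr2:101698008-101698037, plus strand) read as follows, with the matches in capitals.
Irak1 sites 1 and 2: caaAGTTCTCatgcttggaAGTTCTCatag
Traf6 site 1: accgctctggtgttgAGTTCTCatttagtt
Traf6 site 2: tccctggaaggcttaAGTTCTCaagtactc

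Irak1-206 held 2 matches, which begin 40 and 56 bases after the stop codon, and Traf6-201 held 4. Each of these 6 matches is followed by an A, a letter that commonly flanks microRNA sites. Tirap-201 held 2 matches, neither followed by an A, and both lie in the part of the 3′ end that Tirap-203 lacks. The leading transcripts of the other 7 genes held 0. The word occurred in 915 of 8722 leading 3′ UTRs of detected protein-coding genes, 10.5%. Among 3′ UTRs within 20% of the same length, as many matches occurred in 0.883% for Irak1, 0.177% for Traf6 and 2.78% for Tirap. Those sets held 1246, 566 and 791 3′ UTRs and include the gene's own, so the shares are not rates among other genes. For Traf6 the share is Traf6-201 alone. The Irak1 transcripts that carry the matches held 78.4% ± 4.76 of the Irak1 TPM (SD, n = 3), and 70.7% ± 3.77 in the second quantification. In the first, another 20.0% lay in 13 transcripts with no annotated 3′ UTR, and 1.64% in the rest, which have no match. A match describes the letters alone, and the level of the microRNA was not analysed here.

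Tbk1, the main IRF3 kinase of the TRIF route, had 24.1, 17.5 and 24.5 TPM in libraries 1, 2 and 3, a mean of 22.0 ± 3.93 TPM (SD, n = 3). The deposited interval in library 1 was wide, from 20.9 to 27.3 TPM. In that library 15.8% of the Tbk1 TPM was assigned to Tbk1-206, a short model of 442 bases that is annotated as incomplete, against 0% in libraries 2 and 3. The second quantification gave Tbk1-206 27.6%, 22.0% and 0%, and Tbk1-201 75.3% ± 14.7 (SD, n = 3). The full-length transcript Tbk1-201 alone had 19.7, 16.2 and 23.0 TPM. The gene (ENSMUSG00000020115.3) lies on the minus strand at chr10:121546455-121586787.

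Ikbke, which encodes IKK-epsilon, the inducible relative of TBK1, had 24.4, 24.2 and 31.6 TPM in libraries 1, 2 and 3, a mean of 26.8 ± 4.18 TPM (SD, n = 3). In TPM library 3 was high and the others were close, whereas rescaled over protein-coding genes the levels were 63.8, 91.2 and 90.8, with library 1 low. Tbk1 was 0.984, 0.721 and 0.776 times the level of Ikbke, a log2 ratio of -0.29 ± 0.23 (SD, n = 3), which has the same sign in 3 of 3 libraries and is near 0 in library 1. Over full-length coding transcripts the ratio was -0.22 ± 0.09.

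Ikbke (ENSMUSG00000042349.13; chr1:131254343-131279606, minus strand) was divided mainly between Ikbke-201, with 73.0%, 72.7% and 76.3% of its TPM, and Ikbke-204, with 14.6%, 7.51% and 12.2%. Ikbke-204 uses an earlier donor site in exon 4, the coding exon 2 of Ikbke-201 (chr1:131275707-131275847), and so leaves out 72 bases, or 24 codons, without a shift of frame. The join is shown from the GENCODE M21 transcript sequences (mm10, minus strand, chr1:131275265-131275793 with the intron left out), with the bases that Ikbke-204 lacks in capitals.
Ikbke-201: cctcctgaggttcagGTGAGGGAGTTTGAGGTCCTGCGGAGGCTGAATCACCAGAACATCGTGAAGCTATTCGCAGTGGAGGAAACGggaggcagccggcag
Ikbke-204: cctcctgaggttcagggaggcagccggcag
The second quantification gave Ikbke-204 8.07% ± 1.74 (SD, n = 3). Of the TPM in transcripts that cover the join, the longer form made up 87.0% ± 3.54 in the first quantification and 89.3% ± 1.38 in the second. Retained-intron transcripts of Ikbke held 10.1%, 18.4% and 9.97% of its TPM, highest in library 2, and 25.0% ± 6.75 in the second quantification.

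**Figure D2:**
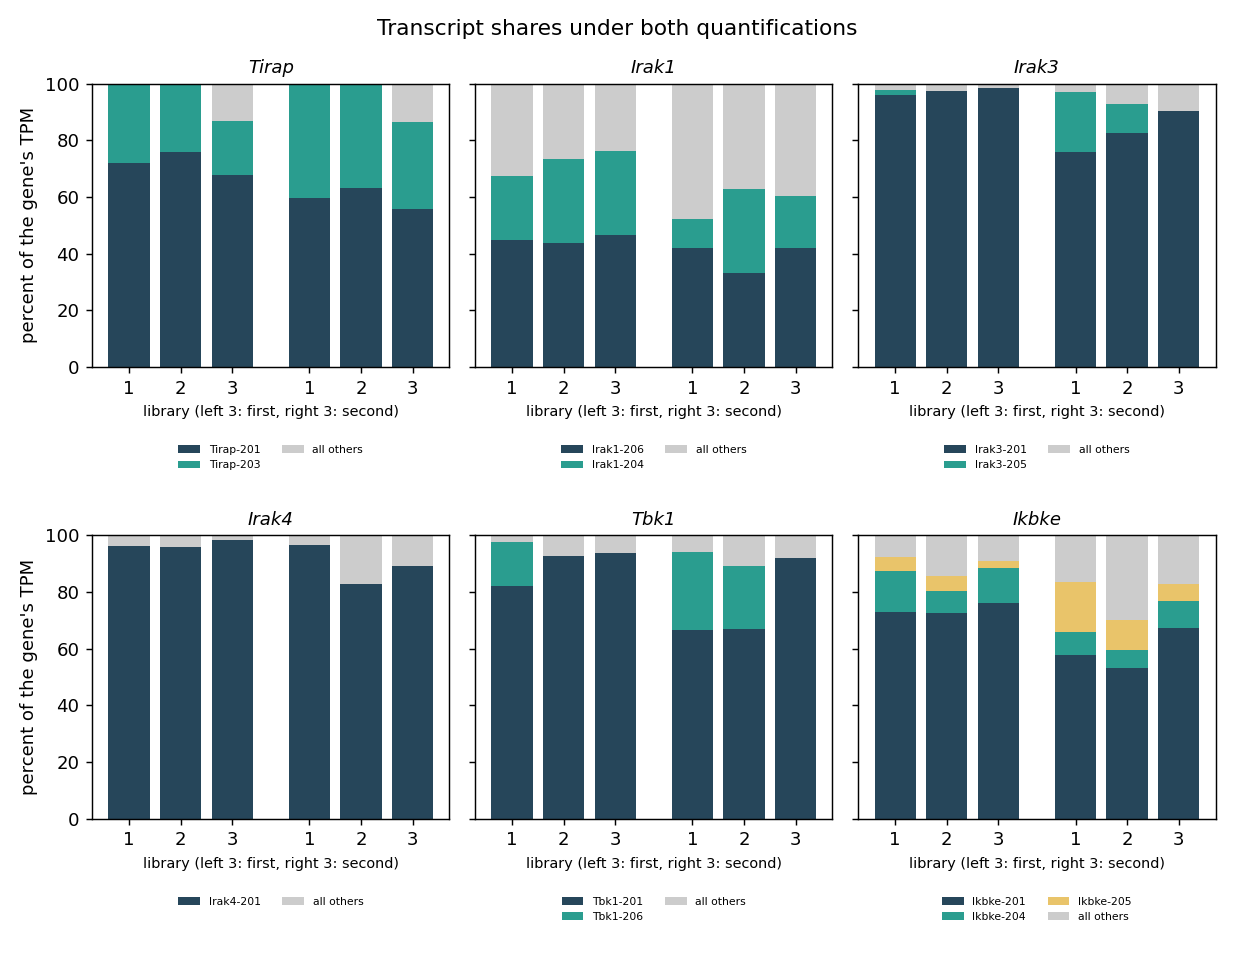
Percent of each gene's TPM assigned to its transcripts, as stacked bars for libraries 1 to 3 in the first quantification (left 3 bars) and the second (right 3 bars); grey stands for all transcripts with a mean share under 10% in both. Irak1-206 and Irak1-204 lead Irak1 in both, while Tbk1-206 appears in library 1 at 15.8% and is at 0% in libraries 2 and 3 of the first quantification.

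Over the 10 genes, 6 had a leading transcript with a mean share of 90% or more in the first quantification: Myd88, Ticam1, Ticam2, Irak3, Irak4 and Traf6. In the second quantification 4 did, as Irak3 and Irak4 fell short of it. Among annotated transcripts, the adaptors thus had 1 main form apart from Tirap, whose transcripts differ mainly at the 3′ end. Outside Tirap, whose leading transcript held a mean of 71.8% in the first quantification, the share of other transcripts lay mostly in the kinases Irak1, Tbk1 and Ikbke. The annotation holds 3, 1 and 2 transcripts for Myd88, Ticam1 and Ticam2 and 7 for Tirap, against 22, 7 and 7 for those kinases. The contrast cannot be told apart from that difference in annotation.

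Ordered by mean TPM, the genes ran Myd88, Ikbke, Tbk1, Irak1, Ticam1, Irak4, Ticam2, Irak3, Traf6 and Tirap. Neighbours were called apart where 1 exceeded the other in 3 of 3 libraries and by a mean log2 ratio of more than 2 SD, and 4 of the 9 neighbouring pairs were. These were Ticam1 above Irak4, Irak4 above Ticam2, Ticam2 above Irak3, and Traf6 above Tirap. Irak4 exceeded Ticam2 by a mean log2 ratio of only 0.11 ± 0.05 (SD, n = 3). The exons that Ticam2 shares with Tmed7 leave its level uncertain, so that pair may not be resolved. Myd88 and Ikbke changed places in library 2, and Irak3 and Traf6 changed places between libraries. The genes from Tbk1 to Ticam2 held ranks 3 to 7 in every library of the first quantification. By mean TPM the second quantification gave the same order except that Ikbke came before Myd88, and within libraries 1 and 2 it also put Tbk1 above Myd88.

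Levels were also rescaled so that protein-coding genes sum to 1000000 in each library. On that scale the median of the 10 mean levels was 38.6 in the first quantification and 38.7 in the second, against 4.43 TPM for the second as deposited. Ikbke had 79.2, 124 and 104 in the second quantification and Myd88 had 64.1, 87.2 and 106, both lowest in library 1. In TPM as deposited, the lowest library for all 10 genes was library 2 in the first quantification and library 3 in the second, in each case the library with the lowest share of TPM on protein-coding genes. After rescaling the first quantification, library 2 was lowest for 2 genes, Ticam1 and Tirap, and library 1 for 6. After rescaling the second, library 3 was lowest for 3 genes, Irak1, Tbk1 and Traf6, and library 1 for 6.

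**Figure D3:**
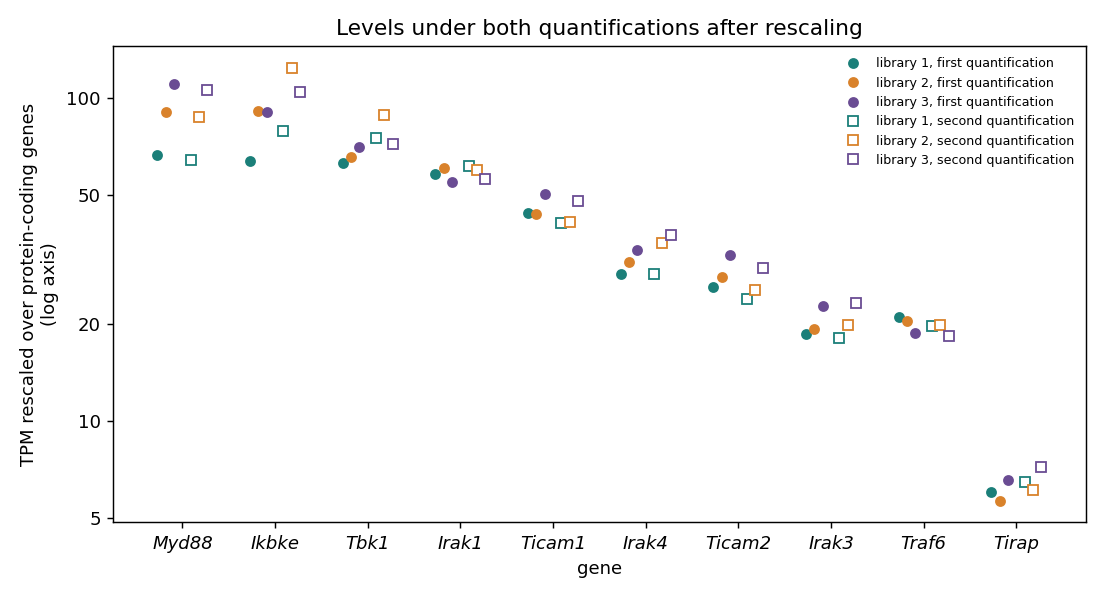
TPM of each gene rescaled to a sum of 1000000 over protein-coding genes, on a log axis, for the first quantification (filled circles) and the second (open squares) in libraries 1 to 3. The order of the mean levels is shared apart from Ikbke and Myd88, and no library is lowest for all 10 genes.

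Whether any of the 10 genes differed between the libraries by more than counting error and the usual spread of genes of like abundance was tested with edgeR on the expected counts of all genes. Of 12231 genes tested, 203 (1.66%) were called at an adjusted p under 0.05 by edgeR's goodness-of-fit test with Benjamini-Hochberg adjustment, in either direction. Of the 10 adaptors and kinases 0 were called, and 1, Myd88, was at an unadjusted p under 0.05. Of all 12231 tested genes, 785 were under that unadjusted value, so it does not by itself single out a gene. Under the 7 alternative settings of edgeR 0 of the 10 were called. The median range over the 3 libraries was 0.24 log2 CPM (counts scaled to the TMM library size) for the 10 genes and 0.28 for all tested genes. All tested genes include many with fewer counts, so these medians are not matched for abundance.

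Myd88 had 5.83, 6.21 and 6.50 log2 CPM in libraries 1, 2 and 3, the widest range of the 10 at 0.67 (edgeR adjusted p = 0.390). Ikbke followed with 6.44, 6.85 and 6.89 log2 CPM (edgeR adjusted p = 1.00). Irak1 had the narrowest range, 0.11, at 6.35, 6.43 and 6.32 log2 CPM. Library 3 was highest for 7 genes on this scale, and Irak1 and Traf6 were lowest there. The 3 genes with the widest ranges, Myd88, Ikbke and Tbk1, all had library 1 lowest. A p above the threshold does not show that the levels were equal.

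**Figure D4:**
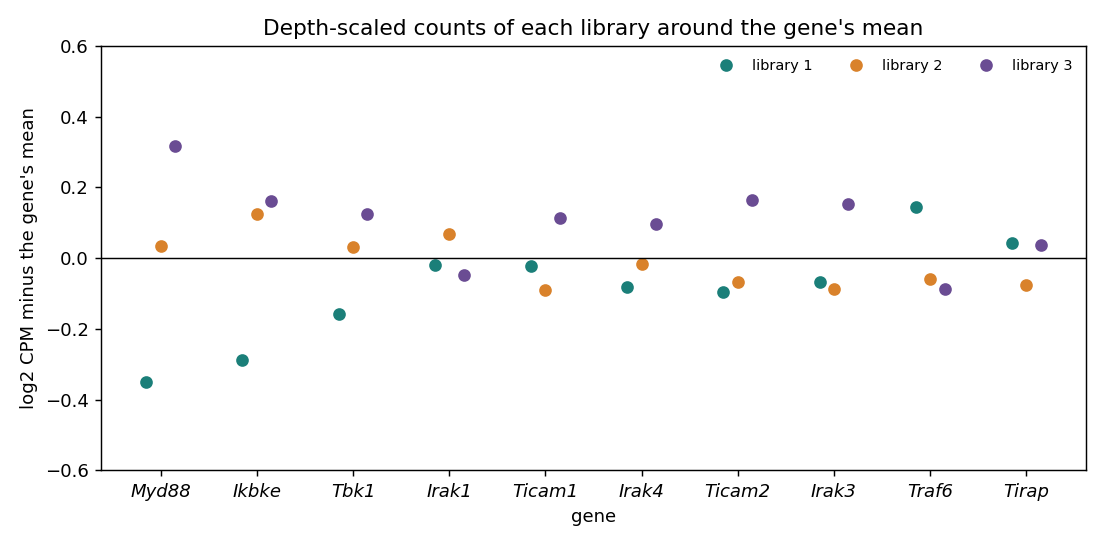
Log2 CPM of each gene in libraries 1, 2 and 3 after subtraction of the gene's mean over the libraries. Myd88 spans 0.67 between libraries 1 and 3, and Irak1 spans 0.11.

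The other genes of the pathway were taken from 5 lists by role, 45 genes in all, of which 41 reached 1 TPM in each library. Of these 45 genes 44 were tested by edgeR and 0 were called, beside 1.66% of all tested genes. For 44 genes, 0 calls is near that share. At an unadjusted p under 0.05 stood 785 of all 12231 tested genes, and 1 of these 44. The 1 was Peli1, a ubiquitin ligase that modifies IRAK1, named because of its p (edgeR adjusted p = 0.420). Without replicate 1 its edgeR adjusted p was 0.0413, and over the other 6 alternatives it was at least 0.421. The median of the mean levels of the 45 genes was 15.6 TPM, beside 12.8 TPM for the adaptors and kinases.

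All 7 receptors and co-receptors were detected, with a median of 30.7 TPM. Cd14, which hands lipopolysaccharide to the receptor complex, led with 522 TPM, followed by Tlr2, a receptor for bacterial lipoproteins, with 106 TPM, and Tlr3, an endosomal RNA receptor that uses TRIF without MyD88, was lowest at 4.76 TPM. Of the 10 partners of the MyD88 arm 6 were detected. Pik3ap1, an adaptor that links Toll-like receptors to phosphoinositide 3-kinase, led with 139 TPM, Tifa, which binds TRAF6, had 41.7 TPM, and Sarm1, the TIR-domain protein best known from neurons, stood at 0.040 TPM.

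All 12 genes of the ubiquitin, TAK1 and IKK step were detected, with a median of 12.5 TPM. Ube2v1 and Ube2n, which form the conjugating enzyme that works with TRAF6, had 51.9 and 47.2 TPM, and the TAK1-binding protein gene Tab1 was lowest at 2.22 TPM. All 11 genes listed with the TRIF arm were detected. The transcription factor genes Irf7 and Irf5 were highest at 55.8 and 54.2 TPM, and the adaptor gene Tradd was lowest at 4.80 TPM. A place on this list does not tie a gene to the TRIF route alone. All 5 restraints were detected. Tnfaip3, which encodes the ubiquitin-editing enzyme A20, stood at 468 TPM, Tax1bp1, its partner, at 58.8 TPM, and the deubiquitinase gene Cyld was lowest at 9.83 TPM.

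**Figure D5:**
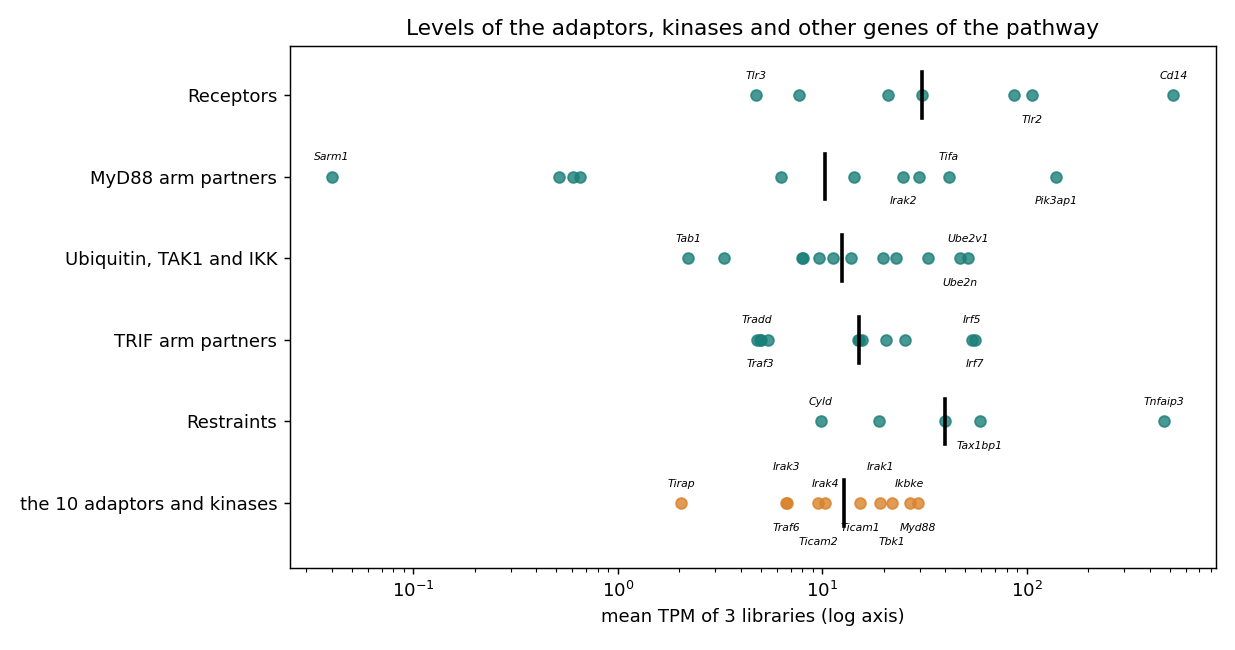
Mean TPM over 3 libraries, on a log axis, of the 10 adaptors and kinases (orange) and of 45 other pathway genes in 5 lists by role (green); black bars are the medians of each list. The adaptors and kinases lie between 2.04 and 29.3 TPM, while Cd14 and Tnfaip3 lie at 522 and 468 TPM.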

How the data were processed

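Total RNA-seq libraries of 1 group (3 biological replicates) were used. Per the labels and the deposited notes, the authors quantified reads on mm10 and GENCODE M21; the tools, their versions and the strand setting were not given there. The deposited gene and transcript tables (RSEM layout, the first quantification) hold expected counts and TPM, with the authors' interval for each TPM, whose level is not stated. A deposited transcript table of kallisto layout (the second) holds estimated counts and TPM. Rows that name no gene (26248 number identifiers with a count of 0, and 97 spike-in and phage rows with 0.0200% to 0.365% of the counts) were left out. A count of 0 allows up to 3 counts, 0.0816 to 0.0908 CPM, for counting error only.

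Expected counts were rounded to whole numbers and tested with edgeR 4.0.16 in R 4.3.3 (filterByExpr, TMM, trended dispersion, goodness of fit of 1 mean, Benjamini-Hochberg threshold 0.05; log2 CPM with a prior count of 0.5). The procedure was tested on simulated data. A gene was detected if every library had 1 TPM or more. Transcript shares are percent of a gene's deposited TPM, computed here. Symbols, coordinates and transcript sequences came from GENCODE M21, and all 55536 identifiers matched. Python 3.11.15, pandas 2.3.3, numpy 2.4.6 and matplotlib 3.10.9 did the rest. Named genes are the 10 genes, the 2 highest and 1 lowest of each list, and genes used in a ratio; named transcripts lead or hold 10% or more. The genes, lists and markers were chosen with earlier results of these data known. Alternatives were another scaling, no filter, a common dispersion, the second quantification, rescaled TPM, other TPM minima and leaving out each library.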

Additional observations from a re-analysis of the deposited data

How the results depend on the processing

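The count of genes called between the libraries was 203, and leaving out each replicate in turn gave 89 to 132; fewer samples were then tested, and 86 to 99 of the calls were shared. Other scaling gave 203, no filter 221, the second quantification 200 with 130 shared, and a common dispersion 298 with 150 shared. The median level of the 10 genes was 12.8 TPM, 4.43 TPM in the second quantification, 38.6 after rescaling over protein-coding genes and 38.7 in the second after rescaling. Between 3 and 6 of the 9 neighbouring pairs were apart over the alternatives. None of the 48 alternative ratios changed sign, and 45 lay within 1 SD; the others were Irak3/Irak4 at -0.73 in the second quantification, and Irak1/Irak4 at 0.53 and Irak3/Irak1 at -1.19 over full-length transcripts. Of 40 alternative leading shares 34 lay within 1 SD; the others were second-quantification values for Tirap, Irak1, Irak3, Irak4, Tbk1 and Ikbke. With detection at 0.5 or 5 TPM, 42 or 34 of the 45 pathway genes passed. Ratios over full-length coding transcripts were added after seeing the data and were not computed for Irak2/Irak4 or Traf6/Traf3. No paired analysis was possible because there is 1 group. At 364 to 408 counts per library Tirap had the least depth of the 10 genes.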

Other observations

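Irak2, a relative of Irak1 in the MyD88 complex, also divided its TPM differently between the libraries. Irak2-207, a short retained-intron model of 573 bases, held 26.8% of the Irak2 TPM in library 1, 10.8% in library 2 and 12.2% in library 3. The second quantification gave it 30.9%, 8.33% and 12.1%. Library 1 also held the TPM of the short model Tbk1-206 in the first quantification. In the second, Tbk1-206 held 27.6%, 22.0% and 0% of the Tbk1 TPM in libraries 1, 2 and 3, so library 1 was not alone there. Neither difference was tested.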
